A study of Sus scrofa with 13 samples.

Results

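The dystrophin complex genes are 8 genes that code for dystrophin, its autosomal relative utrophin and partners of both at the muscle fibre membrane: DMD, UTRN, DTNA, DAG1, SGCA, SGCB, SGCD and SSPN. They were taken by symbol and not by a cut on measured values, though the list was chosen with earlier results of these data known. Of the 8 symbols, 7 matched 1 gene identifier each among the 25322 genes of the count tables. SGCD, which codes for delta-sarcoglycan, matched no identifier and was not analysed here. The 7 genes were followed by RNA sequencing in longissimus lumborum, the loin muscle, of 13 pigs of the sire-line breeds Hampshire and Pietrain. Each breed had a group of high and a group of low loin weight, with 3 and 3 pigs in Hampshire and 4 and 3 pigs in Pietrain. All pigs were 6 month old females, were housed and fed alike, and received no treatment. The groups were set by dissection of the loin, so they describe differences that arose within a breed and not an intervention. No label gave a batch, and anything that differed in handling between the breeds cannot be told apart from breed. The same holds for loin weight and any sample handling that differed between the groups of a breed.

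Dystrophin ties the actin cytoskeleton under the fibre membrane to beta-dystroglycan, which spans the membrane and holds alpha-dystroglycan on the outer face, where sugar chains bind laminin of the basement membrane. The sarcoglycans and sarcospan form a subcomplex beside dystroglycan, and dystrobrevin and the syntrophins sit on the cytoplasmic side, where they hold neuronal nitric oxide synthase. Loss of dystrophin causes Duchenne muscular dystrophy, and loss of a sarcoglycan causes a limb-girdle dystrophy. Utrophin takes a similar place, mainly at the neuromuscular and myotendinous junctions of adult muscle.

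The number of counted reads per pig lay between 11312755 and 20134612 with a median of 14055410, and the 7 genes had 171 to 6046 reads in a pig, so none was near the limit of detection. All 15 pairs of pigs within the groups differed by more than sampling noise. This was a check for copied libraries only, which separate animals pass in any case. Of 13 muscle fibre genes listed as a check of the tissue, 6 matched an identifier, and their summed level was 83470 to 249000 CPM (read counts scaled to a common library size by the trimmed mean of M values, TMM) in every pig. In the Pietrain high group, the only one with enough pigs for Dixon's test, no pig was an outlier in any of the 7 genes. In bulk muscle, fewer fibres or nuclei of a kind and less RNA in each of them cannot be told apart.

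In Hampshire pigs, 6 of the 7 genes differed between high and low loin weight. DMD, SGCB, DAG1, SSPN and DTNA were lower and SGCA was higher in the muscle of pigs with high loin weight, and UTRN did not pass the test. A gene was called when its Benjamini-Hochberg adjusted p-value in edgeR's quasi-likelihood test was under 0.05 and its fold change was at least 1.2. Many genes passed these limits in Hampshire, with 26.6% of the 12228 genes tested being called, 14.6% lower and 12.0% higher, against which the 6 of 7 are to be read. The median log2 fold change of the 7 genes was -0.79, beside 0.03 over all genes tested. The groups did not overlap for any of the 7 genes, as was the case for 45.9% of all genes tested. With 3 pigs against 3, the exact two-sided permutation test gave its smallest possible p of 0.1 for each of the 7 genes.

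**Figure D1:**
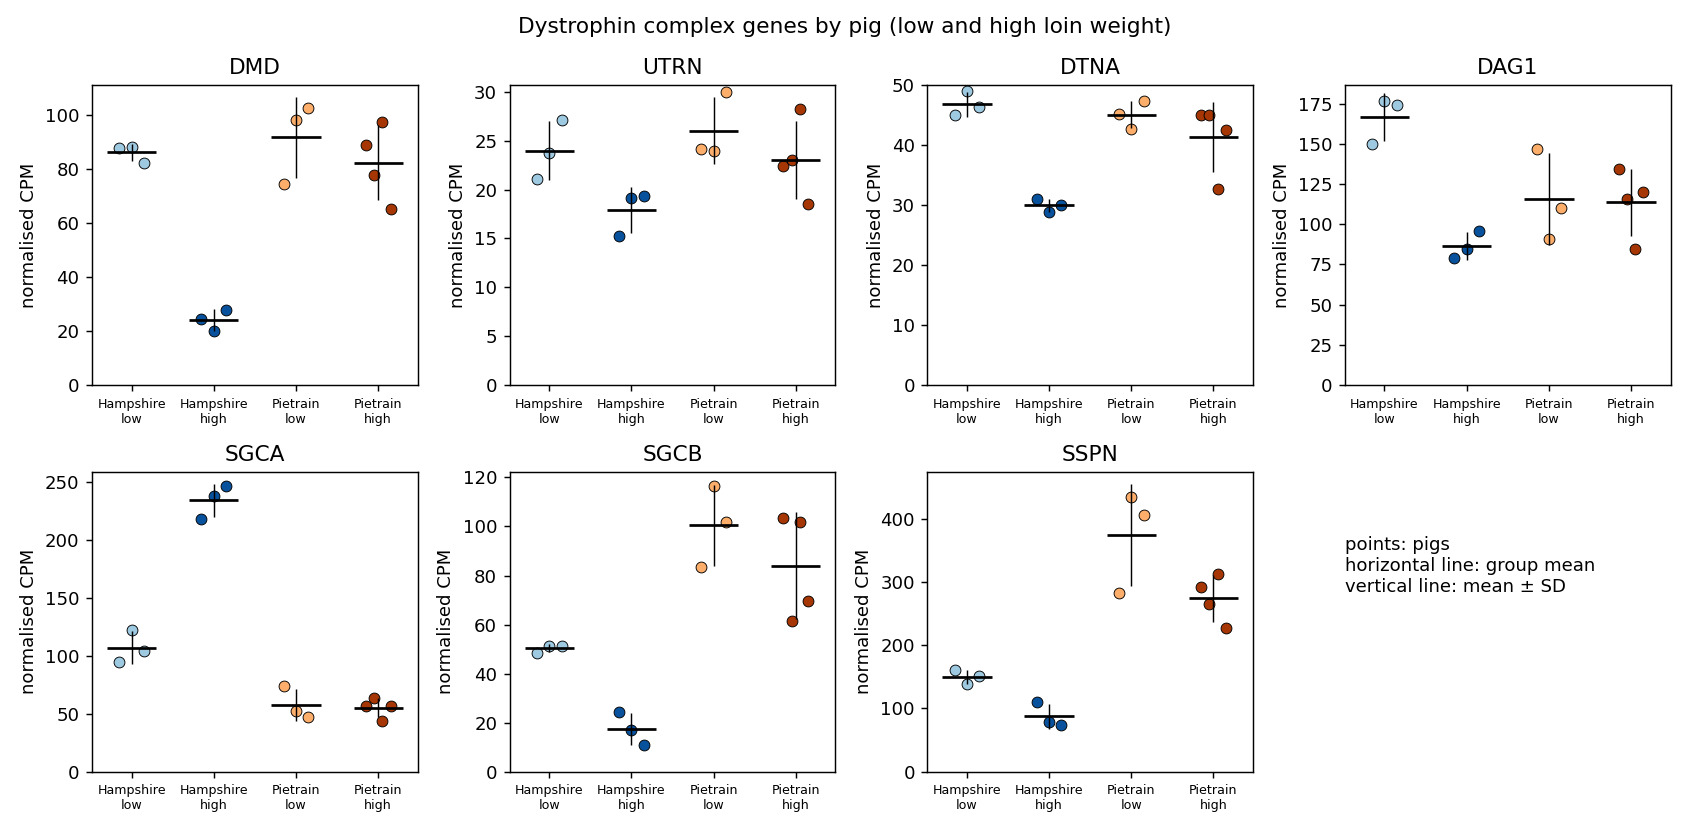
Normalised CPM (y axis, from 0) of the 7 dystrophin complex genes in each of the 13 pigs (points), with the group mean (horizontal line) and SD (vertical line), by breed and loin weight. In the Hampshire pigs with high loin weight, DMD sits at 20.0 to 27.9 CPM while the other 10 pigs sit at 65.4 to 103 CPM, and SGCA sits at 218 CPM or more while the other pigs are at 122 CPM or less.

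DMD (ENSSSCG00000028148) codes for dystrophin, the long rod that joins actin to dystroglycan, and on Sscrofa10.2 it lies on chromosome X from 29401752 to 31958390. It was measured at 87.9, 88.2 and 82.4 CPM in the Hampshire pigs with low loin weight and at 24.4, 20.0 and 27.9 CPM in those with high loin weight. The highest pig of the high group was far under the lowest pig of the low group. The means were 86.2 ± 3.28 and 24.1 ± 3.98 CPM (SD, n = 3 each). This gave a log2 fold change of -1.84 (standard error, SE, 0.176, adjusted p = 0.00118, edgeR) or a 3.57-fold lower level. By p-value DMD was in place 22 among all 12228 genes tested in Hampshire. Its call was kept under every alternative and without any 1 pig.

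UTRN (ENSSSCG00000004123; chromosome 1 from 22999275 to 23103417) codes for utrophin, the relative of dystrophin that binds the same partners. It was at 21.1, 23.7 and 27.1 CPM in the Hampshire pigs with low loin weight and at 15.2, 19.2 and 19.4 CPM in those with high loin weight. The groups lay side by side without overlap, with a gap smaller than the spread inside either group. The log2 fold change was -0.42 (SE 0.179, adjusted p = 0.111, edgeR), so UTRN was not called. UTRN was thus not measured at a higher level in the pigs in which DMD was low.

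DTNA (ENSSSCG00000028047) codes for alpha-dystrobrevin, a cytoplasmic partner of dystrophin that carries the syntrophins. Its levels were 45.0, 49.1 and 46.4 CPM in the Hampshire low group and 31.0, 28.8 and 30.0 CPM in the high group. Pigs within each group were close to each other, and the groups were well apart. DTNA fell by 0.65 on the log2 scale (SE 0.139, adjusted p = 0.0123, edgeR), that is 1.57-fold. Without Hampshire low loin weight pig 3 its adjusted p was 0.0517 at a log2 fold change of -0.66.

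DAG1 (ENSSSCG00000030708; on an unplaced scaffold from 81292 to 97231) codes for the precursor that is cut into alpha- and beta-dystroglycan, the laminin receptor at the core of the complex. The Hampshire low group had 149.9, 176 and 174 CPM and the high group 79.1, 84.8 and 96.0 CPM. All 3 pigs with high loin weight were under 100 CPM and all 3 with low loin weight were near 150 CPM or above. The means of 167 ± 14.7 and 86.6 ± 8.59 CPM (SD, n = 3 each) gave a log2 fold change of -0.95 (SE 0.161, adjusted p = 0.00592, edgeR).

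Within the sarcoglycan and sarcospan subcomplex, the genes went in opposite directions. SGCA (ENSSSCG00000017583; chromosome 12 from 26395260 to 26407113), which codes for alpha-sarcoglycan, was at 94.3, 122 and 104 CPM in the Hampshire low group and at 218, 238 and 246 CPM in the high group. It was the only member that was higher with high loin weight, and no pig of the high group came near the low group. SGCA rose by 1.13 on the log2 scale (SE 0.165, adjusted p = 0.00344, edgeR), or 2.18-fold. It kept its call under every alternative tried in Hampshire.

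SGCB (ENSSSCG00000008833; chromosome 8 from 41306138 to 41324541) codes for beta-sarcoglycan, the first partner around which the other sarcoglycans assemble. It was at 48.6, 51.5 and 51.2 CPM in the Hampshire low group and at 24.2, 17.0 and 10.9 CPM in the high group. The low group was tight, while within the high group the highest pig had more than double the level of the lowest. The log2 fold change was -1.55 (SE 0.252, adjusted p = 0.00510, edgeR), the next largest fall after that of DMD.

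SSPN (ENSSSCG00000025531; chromosome 5 from 51171120 to 51214277) codes for sarcospan, a small protein with several membrane-spanning segments that binds the sarcoglycans. It was at 161, 139 and 151 CPM in the Hampshire low group and at 109.8, 78.5 and 73.8 CPM in the high group. The groups did not overlap, with pig 8 of the high group nearest to the low group. SSPN fell by 0.79 on the log2 scale (SE 0.186, adjusted p = 0.0170, edgeR). Its adjusted p was 0.0614 without Hampshire low loin weight pig 3 and 0.0644 without Hampshire high loin weight pig 10.

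In Pietrain pigs, none of the 7 genes was called. All 7 log2 fold changes were below 0, from -0.41 to -0.00122, though those of DAG1 and SGCA were above 0 when libraries were scaled to total counts (0.0634 and 0.0369). The adjusted p-values were 0.939 or more (edgeR). No gene of the 12065 tested was called in this breed, a share of 0%, while 398 genes had an unadjusted p under 0.05 and DESeq2 called 1 gene. The paper, with DESeq2 in its own pipeline, reports differing genes in both breeds and more of them in Pietrain than in Hampshire. Why the numbers of called genes differ from those here was not tested. The high and low groups overlapped for all 7 genes, and 4.60% of all genes tested did not overlap.

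DMD was at 74.4, 98.2 and 103 CPM in the Pietrain low group and at 88.8, 78.0, 97.3 and 65.4 CPM in the high group. These pigs covered the same range, and all 7 were well above the Hampshire pigs with high loin weight. The log2 fold change was -0.12 with a 95% interval from -0.552 to 0.308, which does not reach the Hampshire estimate. SGCA was at 73.6, 52.7 and 47.0 CPM in the low and 56.8, 63.7, 44.0 and 56.3 CPM in the high group. Its groups overlapped over most of their range, and its log2 fold change of -0.03 had an interval from -0.516 to 0.448.

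SSPN had the largest Pietrain difference of the 7, with 282, 433 and 406 CPM in the low group and 292, 265, 312 and 227 CPM in the high group. Pig 3 of the low group lay inside the range of the high group, and the other low pigs were above it. The log2 fold change was -0.41 (95% interval from -0.851 to 0.0234, unadjusted p = 0.0613 in edgeR, exact permutation p = 0.143). SGCB was at 83.5, 116 and 102 CPM in the low group and at 103.6, 61.4, 102 and 69.6 CPM in the high group, a log2 fold change of -0.22. UTRN, DTNA and DAG1 had log2 fold changes of -0.15, -0.09 and -0.00122 in Pietrain, and none of their groups was separate.

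**Figure D2:**
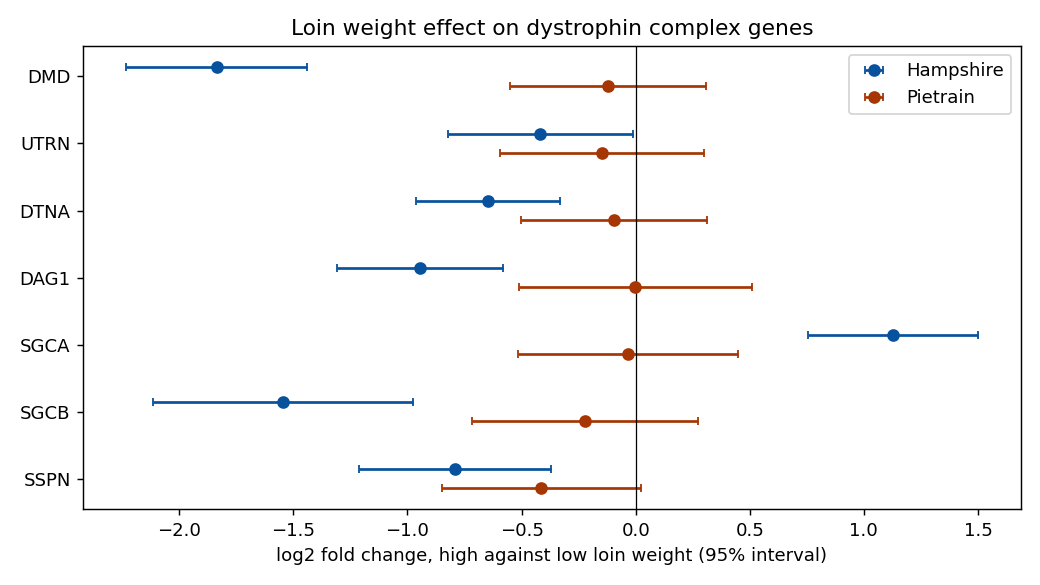
Log2 fold change of each gene for high against low loin weight (x axis) in Hampshire (blue) and Pietrain (brown), with 95% intervals (bars) from edgeR. In Hampshire, DMD (-1.84) lies farthest to the left and SGCA (1.13) alone to the right of 0, while every Pietrain interval includes 0.

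The difference between the breeds in the loin weight effect was tested in 1 fit over all 13 pigs, in which 5.90% of 12831 genes had an adjusted p under 0.05, 4.22% with a lower and 1.68% with a higher effect in Hampshire. DMD and SGCA were the 2 of 7 genes that passed. For DMD the effect was lower in Hampshire by 1.68 on the log2 scale (SE 0.267, adjusted p = 0.00438, edgeR), a result that held under every alternative run and without any 1 pig. Removal of the trend with gene length, described below, was not among these alternatives. For SGCA the effect was higher in Hampshire by 1.19 (SE 0.270, adjusted p = 0.0206). The SGCA difference no longer passed with scaling to total counts (adjusted p = 0.0823), or without Hampshire low loin weight pig 1 or 3, Hampshire high pig 9 or 10, or Pietrain high pig 1 or low pig 3, with adjusted p-values of 0.0596, 0.0790, 0.0604, 0.0606, 0.0521 and 0.0620 in this order. SGCB (-1.28, adjusted p = 0.0583) and DAG1 (-0.92, adjusted p = 0.0750) did not pass. SGCB did pass in 4 of the 5 alternatives, which were DESeq2 (adjusted p = 0.0148), total counts (0.0223), no filter (0.0399) and at least 10 counts in every pig (0.0337), and not with DESeq2 size factors in edgeR (0.0577). It also passed without Pietrain high pig 2 or 7 or Hampshire high pig 8 (adjusted p = 0.0377, 0.0456 and 0.0170), DAG1 without Pietrain low pig 3 or high pig 6 (0.0343 and 0.0222) and DTNA without Pietrain high pig 6 (0.0339). With all pigs, DTNA (-0.52, adjusted p = 0.179), SSPN (-0.33, adjusted p = 0.536) and UTRN (-0.24, adjusted p = 0.646) were not shown to respond differently in the breeds.

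The breeds were also compared at the same loin weight, using the same pigs as the comparisons above. At low loin weight, SGCA was higher in Hampshire than in Pietrain by 0.89 on the log2 scale (adjusted p = 0.0153, edgeR), and SGCB and SSPN were lower, with log2 values of -0.995 (adjusted p = 0.0270) and, for SSPN, -1.31 (adjusted p = 0.00752). Called genes made up 17.9% of the 12831 tested, 7.84% higher and 10.1% lower in Hampshire. For these 3 genes and DAG1 the breeds did not overlap at low loin weight, as for 42.8% of all genes. The SGCA call was lost without Hampshire low pig 2 (adjusted p = 0.0768), Pietrain low pig 5 (0.0709) or Pietrain low pig 8 (0.0693). The SGCB call was lost without any of these pigs (adjusted p = 0.100, 0.103 and 0.0857) and without Hampshire low pig 1 or 3 (0.0606 and 0.0810). DAG1 (0.52, adjusted p = 0.0888) was called without Pietrain low pig 3 or high pig 6 (0.0294 and 0.0408). DMD was nearly level between the breeds at low loin weight, with a log2 fold change of -0.09 (adjusted p = 0.761), and DTNA and UTRN had values of 0.05 and -0.12.

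At high loin weight, DMD (-1.77, adjusted p = 1.84e-05), SGCB (-2.27, adjusted p = 3.56e-05), SSPN (-1.65, adjusted p = 4.52e-05) and DTNA (-0.46, adjusted p = 0.0212) were lower in Hampshire on the log2 scale, and SGCA was higher (2.08, adjusted p = 5.91e-06; edgeR). These 5 of 7 genes stood beside a background of 46.8% called, 22.6% higher and 24.2% lower. UTRN (-0.36, adjusted p = 0.120) and DAG1 (-0.39, adjusted p = 0.114) were not called. The call of DTNA was lost in a fit of only these groups (adjusted p = 0.0595) and without Pietrain high pig 1 (adjusted p = 0.0543) or 2 (0.0553), and DAG1 was called without Pietrain high pig 6 (0.0329).

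Read across the 4 groups, each gene gave its own order of levels in CPM. For DMD and DTNA, Hampshire low, Pietrain low and Pietrain high overlapped each other and Hampshire high lay under every other pig. For SGCA the order from the top was Hampshire high, Hampshire low and then both Pietrain groups, which overlapped. SGCB and SSPN ran the other way, with both Pietrain groups overlapping at the top, Hampshire low under them and Hampshire high at the bottom. DAG1 was highest in Hampshire low, with both Pietrain groups overlapping each other under it and each reaching, with 1 pig, into the range of Hampshire high. For UTRN each group overlapped its neighbours in the order of the means.

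Since a ratio of 2 genes within a pig does not depend on the library size, read counts were also set against those of DMD. A ratio of genes of unlike length is still open to the trend with gene length described below. That trend was not removed from the ratios. There were 8.91, 11.9 and 8.82 reads of SGCA for each read of DMD in the Hampshire high group and 1.07, 1.39 and 1.27 in the low group. In the Pietrain pigs the ratio was 0.453 to 0.989. On the log2 scale the SGCA to DMD ratio was 3.29 ± 0.243 (SD, n = 3) with high and 0.305 ± 0.189 (SD, n = 3) with low loin weight in Hampshire, without overlap (exact permutation p = 0.1, the smallest possible). In each of these 3 pigs SGCA reads outnumbered DMD reads by far more than in any other pig.

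The UTRN to DMD ratio was 0.6245, 0.959 and 0.694 in the Hampshire high group, above the range of 0.240 to 0.329 that held all 10 other pigs. UTRN reads therefore came closest to DMD reads in these 3 pigs, while the level of UTRN itself was not higher in them. On the log2 scale the means were -0.42 ± 0.323 and -1.85 ± 0.232 (SD, n = 3 each; exact permutation p = 0.1). The SGCB to DMD ratio overlapped between the Hampshire groups (exact permutation p = 0.6). Of the 6 ratios to DMD computed in each breed, only that of SSPN separated the Pietrain groups. It was 3.79, 4.41 and 3.96 in the Pietrain low group and 3.29, 3.39, 3.20 and 3.47 in the high group, a log2 difference of -0.28 (exact permutation p = 0.0286, the smallest possible and not adjusted for the 6 ratios). The other 5 Pietrain ratios overlapped between the groups (exact permutation p of 0.6 or more).

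**Figure D3:**
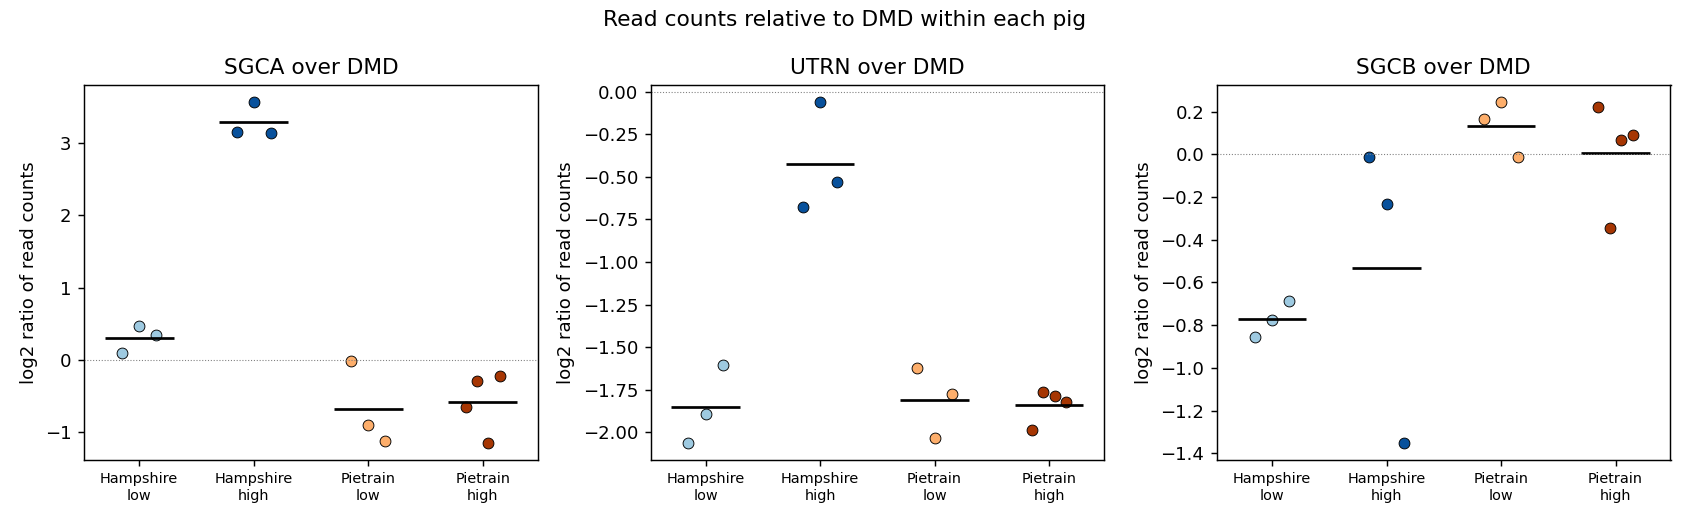
Log2 ratio of the read counts of SGCA, UTRN and SGCB to those of DMD in each pig (points), with group means (lines), by breed and loin weight; the dotted line marks equal counts. The Hampshire pigs with high loin weight stand above all other pigs for SGCA and UTRN, and not for SGCB.

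Gene length on the chromosome moved with the Hampshire result. Longer genes tended to have lower log2 fold changes in this breed (Spearman's rho over genes = -0.386, genes not being independent of each other). With the genes cut into 10 length classes of equal size, the median went from 0.476 in the shortest class to -0.338 in the longest. DMD and UTRN, with 2560 and 104 kb, are both in the longest class. SGCA, with 11.9 kb, is in a class with a median of 0.208, DAG1 and SGCB, with 15.9 and 18.4 kb, in a class with a median of 0.023, and SSPN, with 43.2 kb, in a class with a median of -0.263. The same trend within single pigs, relative to the mean of all 13 pigs, had a rho of -0.412 to -0.341 in the Hampshire high group and of -0.0883 to 0.34 in the other pigs. The difference of effects between the breeds also went lower with gene length (rho = -0.337). So did the comparisons of Hampshire with Pietrain at high (-0.391) and low loin weight (-0.215). The length trend was not removed in these fits.

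With the length trend removed, the Hampshire log2 fold changes of DMD (-1.63, adjusted p = 0.000961, edgeR), SGCB (-1.52, adjusted p = 0.00443), SGCA (1.02, adjusted p = 0.00398) and DAG1 (-0.96, adjusted p = 0.00487) were still called. DMD, with 2560 kb, lies at the end of the lengths fitted, and its length class had a median of 142 kb. The trend removed from DMD was thus set mostly by far shorter genes. The value of UTRN went to -0.0076 (adjusted p = 0.979). SSPN came to -0.53 (adjusted p = 0.0518) and lost its call. DTNA has no length in the files and was not fitted in this way. What gave rise to the trend with length was not tested.

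**Figure D4:**
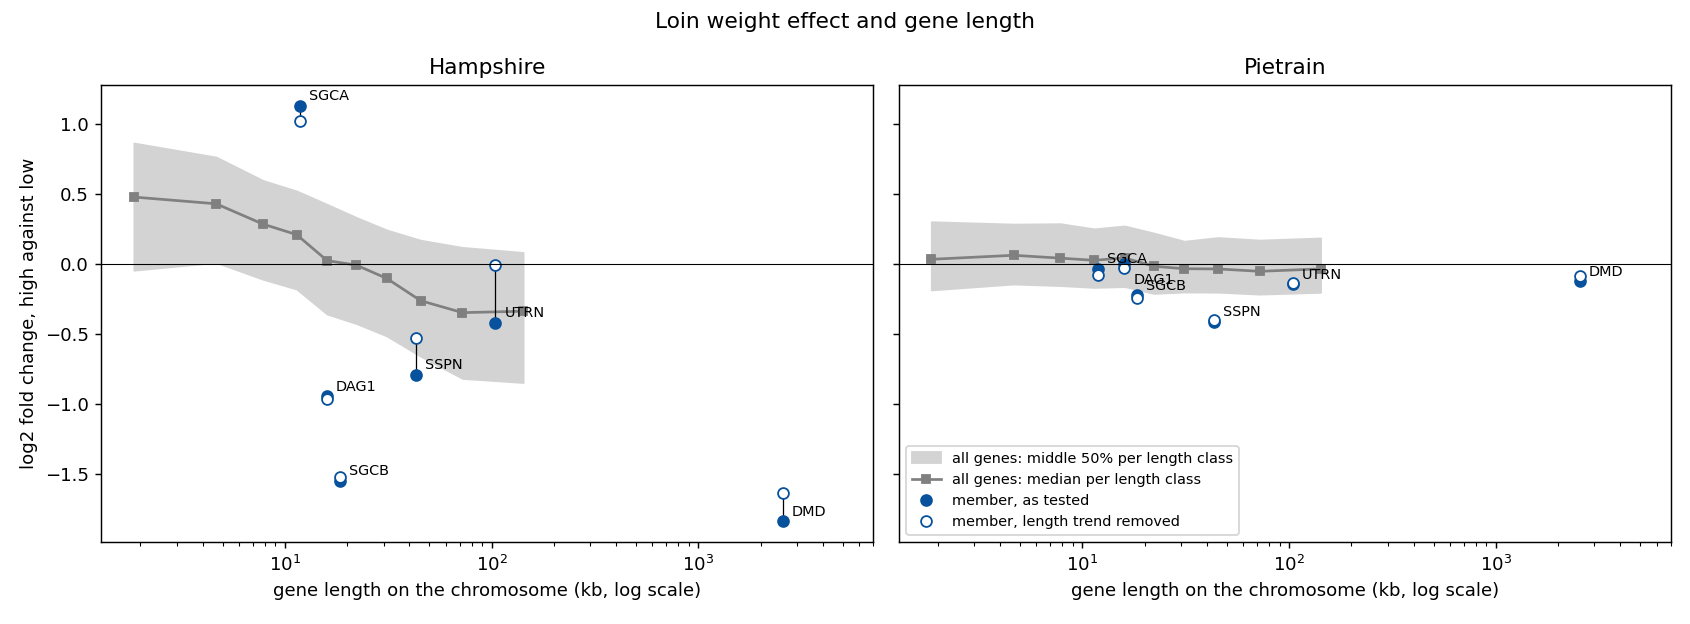
Log2 fold change for high against low loin weight (y axis) against gene length (x axis, kb, log scale) in Hampshire and Pietrain, for the 6 genes with a length as tested (filled) and with the length trend removed (open), over the median (line) and middle 50% (band) of all genes in each length class. In Hampshire, UTRN moves from -0.42 to -0.0076, whereas DMD, SGCB, DAG1 and SGCA come to -1.63, -1.52, -0.96 and 1.02. The band holds fold changes with the trend kept, and it ends short of the length of DMD.

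Across the 13 pigs, which differ by group, Pearson's r of log2 CPM ranged widely between pairs of members. It was 0.954 for SGCB with SSPN, -0.952 for SGCA with SGCB, -0.956 for SGCA with SSPN, 0.891 for DMD with SGCB and -0.872 for DMD with SGCA, the 5 pairs farthest from 0. Across the groups DAG1 had values nearer 0 with SSPN (0.0821), SGCA (-0.178), SGCB (0.275) and UTRN (0.343). With group means removed the first 5 pairs had r of 0.779, -0.527, -0.748, 0.285 and -0.573 over the 13 pigs, which share the normalisation. The same removal gave DAG1 an r of -0.725 with SSPN, 0.796 with SGCA, -0.485 with SGCB and -0.191 with UTRN. The genes with a symbol whose log2 CPM followed DMD most closely were ABCC9 (r = 0.978), ANKRD17 (0.975), MLLT10 (0.974), PIGN (0.969) and KIAA0100 (0.966), out of 9814 genes and over 13 pigs. Among the closest to SGCA were CCND3 (0.981), AMDHD2 (0.978), GSTP1 (0.974) and FKBP2 (0.973). For UTRN the closest genes had lower values, with GNPTAB at 0.923, SLC19A2 at 0.900 and TDRD12 at 0.888.

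Of 14 other genes of the complex and its laminin side, 8 matched an identifier and 7 were tested, and in Hampshire 2 were called, both lower. A share of 2 in 7 is close to the 26.6% of all genes called in this breed. NOS1, which codes for the neuronal nitric oxide synthase that docks on the syntrophins, was at 24.0, 37.4 and 25.8 CPM in the Hampshire low group and at 3.33, 1.64 and 6.58 CPM in the high group. The groups were well apart, with a log2 fold change of -2.88 (SE 0.426, adjusted p = 0.00361, edgeR). It has no length in the files and was not fitted with the length trend removed. NOS1 also differed in its effect between the breeds (-3.16, adjusted p = 0.0228; 0.0521 to 0.0534 without Hampshire high pig 9, Hampshire low pig 2, or Pietrain low pig 5 or 8), and its Pietrain values of 2.92 to 19.1 CPM in the high and 8.94 to 12.2 CPM in the low group overlapped. SNTB1, a syntrophin gene, had -0.73 (adjusted p = 0.0234), which became -0.32 (adjusted p = 0.208) with the length trend removed, and it was not called without Hampshire low pig 2 or 3 or high pig 9 or 10 (adjusted p = 0.0507 to 0.0755). SGCE, coding for epsilon-sarcoglycan, had 1.23 (adjusted p = 0.110) and DTNB, coding for beta-dystrobrevin, 0.64 (adjusted p = 0.139). The median of the 7 was 0.04, beside 0.03 over all genes.

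Genes that build the sugar chains of alpha-dystroglycan changed little as a group in Hampshire, with 2 of 15 tested identifiers higher and 1 lower, a share under the 26.6% of all genes, and a median log2 fold change of 0.02. DPM2 (0.94, adjusted p = 0.0130, edgeR) and DPM3 (1.203, adjusted p = 0.0133), subunits of the enzyme that makes the mannose donor, were higher. DPM2 was not called with the length trend removed (0.57, adjusted p = 0.0629) or in 1 fit over all pigs (adjusted p = 0.0620), and neither gene was called without Hampshire low pig 3 (adjusted p = 0.0628 for both).

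Among genes of the costamere, which couples the Z-disc to the membrane, and of membrane repair, 7 of 15 tested were lower and 0 higher in Hampshire, with a median of -0.54, beside 14.6% lower and 12.0% higher over all genes. SYNM, coding for the intermediate filament protein synemin, was at 312, 286 and 268 CPM in the Hampshire low group and at 90.7, 68.0 and 64.8 CPM in the high group. All 3 high pigs were far under the low pigs, and all Pietrain pigs lay higher still, at 491 to 751 CPM. The log2 fold change of SYNM was -1.96 (adjusted p = 0.00118, edgeR). ANK2, an ankyrin gene, fell by 1.97 (adjusted p = 0.00118), from 38.4, 57.7 and 47.0 CPM to 12.7, 12.9 and 10.9 CPM. Both also differed in their effect between the breeds, SYNM by -1.99 (adjusted p = 0.00251) and ANK2 by -1.77 (adjusted p = 0.00438).

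The other 5 were ANO5 (-1.07, adjusted p = 0.0214), coding for a membrane protein needed for repair, TRIM72 (-0.91, adjusted p = 0.00470), coding for a protein that gathers at membrane wounds, FLNC (-0.86, adjusted p = 0.0341), coding for a filamin that binds sarcoglycans, ITGB1 (-0.62, adjusted p = 0.0254), coding for the beta chain of the laminin-binding integrin, and VCL (-0.57, adjusted p = 0.0235), coding for vinculin. VCL had -0.16 (adjusted p = 0.466) with the length trend removed. FLNC (-0.72, adjusted p = 0.0547) and ITGB1 (-0.32, adjusted p = 0.157) were not called with it removed either. ANO5 and TRIM72 have no length in the files and were not fitted in this way. Without Hampshire low pig 3, ANO5, FLNC, ITGB1 and VCL lost their calls (adjusted p = 0.0664, 0.131, 0.0845 and 0.0797). FLNC and ITGB1 also lost them without low pig 2 or high pig 9 or 10 (adjusted p = 0.0559 to 0.114), VCL without low pig 2 or high pig 10 (0.0649 and 0.0797) and ANO5 without low pig 1 (0.0527). In 1 fit over all pigs TRIM72, FLNC and ITGB1 were not called (adjusted p = 0.114, 0.0550 and 0.0653). DYSF, coding for dysferlin, had -0.54 (adjusted p = 0.0570). In Pietrain none of the genes in these 3 lists was called.

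**Figure D5:**
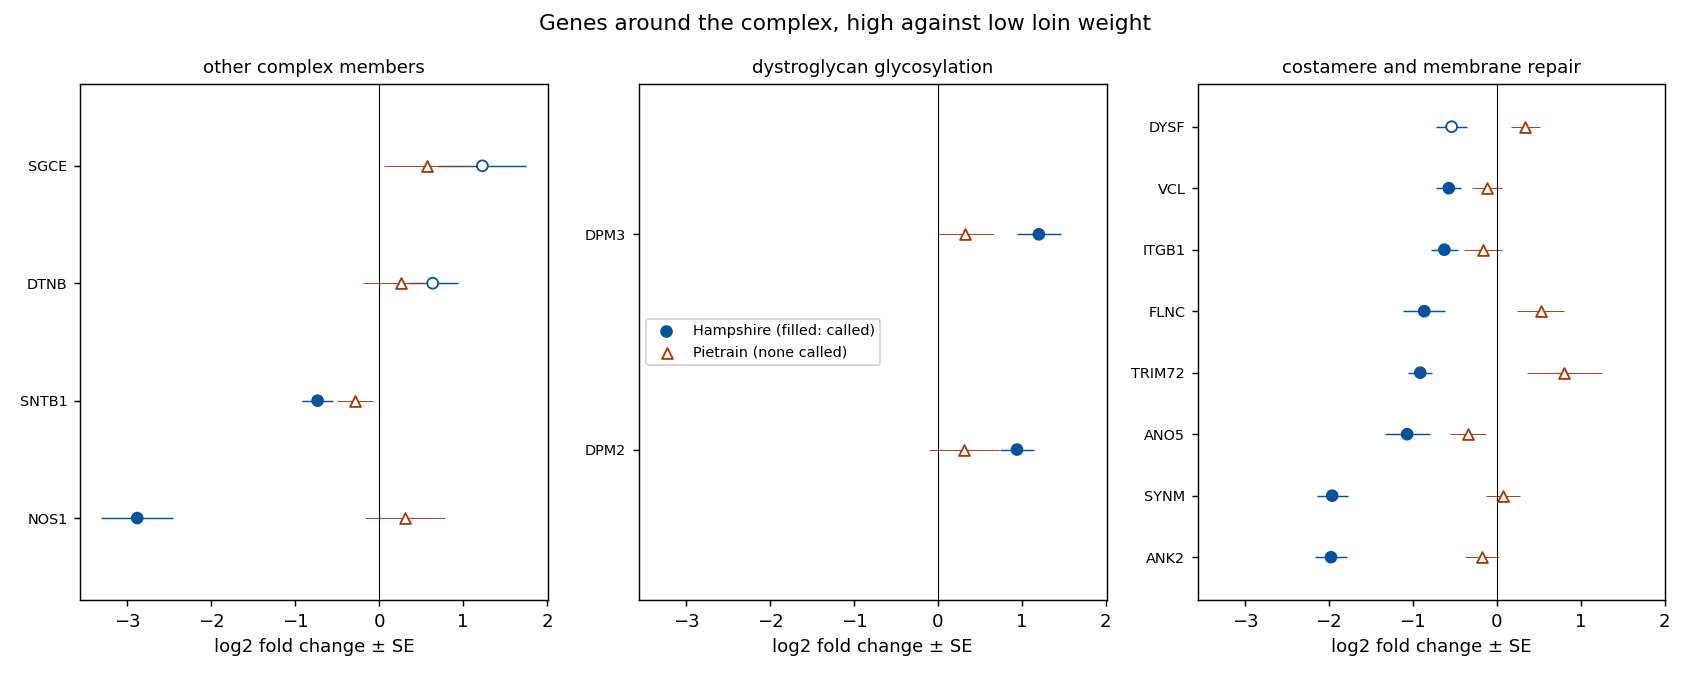
Log2 fold change ± SE for high against low loin weight (x axis) of the 14 genes named above from the lists of other complex members, dystroglycan glycosylation and costamere and membrane repair, in Hampshire (circles, filled where called) and in Pietrain (triangles, none called). NOS1 (-2.88), ANK2 (-1.97) and SYNM (-1.96) lie farthest to the left in Hampshire, and DPM2 (0.94) and DPM3 (1.203) are the called genes to the right of 0.

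Some genes that mark other cell and fibre types were also called between the Hampshire groups, where 12.0% of all genes were called higher, and their part in the results above was not tested. Counts such as 1 of 7 or 2 of 9 below are near that share. Of the muscle fibre genes used as a check of the tissue, 2 of 6 were higher and 1 lower with high loin weight. All 5 slow fibre genes tested, of 10 listed, were higher with high loin weight, with summed levels of 11690 to 17790 CPM against 2832 to 6602 CPM. Of 7 fast fibre genes, 0 were higher and 1, MYH1 (log2 fold change -1.25), was lower. Of fibroblast and matrix genes 3 of 9 were higher (1998 to 5286 against 775.8 to 1716 CPM), of smooth muscle and pericyte genes 2 of 9 (299.0 to 436 against 219 to 297 CPM), of endothelial genes 2 of 7 (238 to 278 against 164 to 209 CPM) and of macrophage genes 1 of 7 (146 to 200.1 against 49.5 to 124 CPM). Of 4 adipocyte genes 2 were higher and 1 lower (232 to 352 against 186 to 229 CPM). None of 6 neuromuscular junction genes (25.3 to 31.2 against 20.5 to 43.3 CPM), 5 genes of regenerating fibres and satellite cells and 3 blood genes was called. All listed defining markers that matched were detected in the Hampshire groups.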

How the data were processed

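RNA from longissimus lumborum of 13 pigs was made into TruSeq RNA v2 libraries and sequenced in single-end reads, in repeated runs that are deposited as 1 column per pig. The authors deposited whole-number read counts per Ensembl gene, without normalization, and the submitters' processing notes name FastQC, STAR, RSEM, DESeq2 and the Sscrofa10.2 assembly. RSEM gives estimated counts, but the deposited values are whole numbers and were used as counts. The kit does not mark strand, so reads of overlapping genes on opposite strands cannot be told apart. Gene symbols and positions came from the authors' tables, and 6102 further symbols, among them those of UTRN and DTNA, came from a RefSeq table of another assembly used for names only. In all, 13168 of 25322 identifiers had a symbol. The authors' fold changes and p-values in the deposited tables were not used.

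The genes, the further lists (other complex members, dystroglycan glycosylation, costamere and membrane repair, and markers of muscle fibre, slow and fast fibre, regenerating fibre and satellite cell, neuromuscular junction, endothelial, smooth muscle, fibroblast, adipocyte, macrophage and blood cells) and the tests were chosen with earlier results of these data known. All 7 genes were named, and of the wider lists the called genes and a few with known roles in the complex, and some genes of these lists, counted among their members, are not reported here by name. Counts were tested in R 4.3.3 with edgeR 4.0.16 (TMM, filterByExpr, glmQLFit, glmQLFTest) within each breed, and in 1 fit over all pigs for the difference of effects and for breed. A call needed an adjusted p under 0.05 with a fold change of 1.2 or more, and the difference of effects had no fold limit. CPM were scaled by TMM over all 13 pigs. Exact permutation tests, two-sided, used log2(CPM + 0.5) or log2 count ratios and could not go below 0.1 in Hampshire or 0.0286 in Pietrain. Pigs are separate animals. The gene length trend was removed with a loess offset, where at least 80% of tested genes had a length. Alternatives were DESeq2 1.42.0, scaling to total counts, other filters, other samples in the fit, the length trend removed and leaving out each pig. The tests were checked on simulated counts. Sequences were not used here. Plots were made in Python 3.11.15 with matplotlib 3.10.9.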

Additional observations from a re-analysis of the deposited data

Results flagged for a closer look

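The loin weight effect on 2 genes differed between the breeds by the test of the difference itself over 13 pigs (edgeR's quasi-likelihood test). For DMD the difference, Hampshire minus Pietrain, was -1.68 on the log2 scale (adjusted p = 0.00438), with all 3 Hampshire pigs of high loin weight under all 3 of low loin weight and the Pietrain groups overlapping. For SGCA it was 1.19 (adjusted p = 0.0206), with all 3 Hampshire pigs of high loin weight above all 3 of low loin weight and the Pietrain groups again overlapping. The DMD difference held without any 1 pig. That of SGCA did not pass in 6 of the 13 fits without 1 pig or with scaling to total counts (adjusted p = 0.0823). The trend with gene length was not removed from either difference. Breed and any difference in handling between the breeds cannot be told apart, nor can loin weight and any difference in handling between the groups of a breed.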

How the results depend on the processing

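No paired analysis was possible because high and low pigs of a breed share no pig number, and equal numbers in the 2 breeds name different animals. DMD kept its Hampshire call, its difference between breeds and its call between breeds at high loin weight under every alternative run. Of 579 values recomputed, 529 kept their direction and side of the threshold, and the cause of the other changes was not tested. With DESeq2, 1 gene was called in Pietrain, and 1223 genes and 4 of the 7 members differed in effect between the breeds, with DAG1 (adjusted p = 0.0359) and SGCB (0.0148) beside DMD and SGCA. Scaling to total counts shifted the median log2 fold change of all genes from 0.03 to -0.12 in Hampshire, with 781 genes higher and 1927 lower in place of 1468 and 1788. For the difference of effects it shifted the median to -0.29 (107 genes higher and 876 lower in place of 215 and 542), ended the SGCA call (0.93, adjusted p = 0.0823) and gave calls for DAG1 (0.0469) and SGCB (0.0223). It also gave calls for UTRN (0.0346) and DAG1 (0.0396) between breeds at high loin weight, where 1893 genes were higher and 3826 lower in place of 2896 and 3105. A fit over all pigs gave 958 genes higher and 1583 lower in Hampshire. Values near 0 changed sign in Pietrain: DAG1 to 0.0634 with total counts and 0.0269 with at least 10 counts per pig, and SGCA to 0.0369 with total counts. Leaving out 1 pig gave 1224 to 3049 called genes and 4 to 6 called members in Hampshire, the fewest genes without low pig 3, with 1760 without high pig 10 and 2091 without high pig 9. It gave 379 to 1052 genes and 1 to 4 members for the difference of effects, 109 to 3091 genes and 1 to 4 members for breed at low loin weight (109 without Hampshire low pig 2, 111 without Pietrain low pig 8) and 4640 to 6288 genes and 4 to 6 members at high loin weight. In the same fits the Pietrain values ran from -0.17 to 0.24 for DAG1, -0.16 to 0.22 for SGCA and -0.15 to 0.0208 for DTNA, and at low loin weight the breed values from -0.17 to 0.0413 for DMD and -0.18 to 0.0376 for UTRN. The length trend was not removed in the fits over all pigs, where only 77.7% of genes had a length, and summing identifiers was not run, since each member had 1 identifier.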
